A study of Arabidopsis thaliana with 6 samples.

Results

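Class III peroxidases of the PRX family were described in whole seedlings of Arabidopsis thaliana, 3 libraries of fip37-4 LEC1:FIP37 against 3 of wild-type. The 47 genes were taken by locus code from a list of secreted family members, out of 28141 features listed in the files. The fip37-4 LEC1:FIP37 seedlings carry the fip37-4 allele of FIP37, a subunit of the complex that writes the m6A mark on RNA, together with a FIP37 transgene under the promoter of LEC1, a gene of the embryo. Both groups were Col-0, were harvested at an age of 5 days, and grew on MS plates at 23 °C in long days (16 h light, 8 h dark). RNA was depleted of ribosomal RNA and made into strand-specific libraries. Nothing in the labels says whether the 3 replicates of a group came from separate plates or sowings, so the p-values cover only how these samples vary among themselves, which may be technical variation. The transgene limits the model: it supplies FIP37 from a promoter of embryonic origin, and FIP37 RNA in the seedlings is the sum of the transgene's and the endogenous gene's transcripts.

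Class III peroxidases are heme enzymes that plant cells secrete into the wall and the vacuole. With hydrogen peroxide they oxidise monolignols, which then couple into lignin, and tyrosines of extensins, which then cross-link the wall; they can also release reactive oxygen in the oxidative burst after an elicitor. In roots they act in the Casparian strip of the endodermis and in the growth of root hairs, and in stems and vessels they act in lignification. The family arose through many duplications, and several members lie side by side in the genome. Over the 1081 pairs that the 47 genes form, identity between coding sequences ranged from 45.2% to 100%, with a median of 51.9%, and 35 of the 47 genes had 4 coding exons.

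Several neighbours are so alike that a read can be assigned only by the bases at which they differ, which are shown first. Sequences were read 5′ to 3′ from the RefSeq assembly TAIR10.1. The authors' build is TAIR10, and the sequences are given only with TAIR10.1 positions. PRX33 (AT3G49110) and PRX34 (AT3G49120), neighbours on chromosome 3, were 90.4% identical in coding sequence, and the longest stretch without a difference was 111 nt. The stretches below, of 90 nt within 1 exon of each gene, are those with the most differences, 18 bases, which are in capitals. They lie at chr3:18200785-18200874 and chr3:18207888-18207977, on the plus strand.
PRX33 coding: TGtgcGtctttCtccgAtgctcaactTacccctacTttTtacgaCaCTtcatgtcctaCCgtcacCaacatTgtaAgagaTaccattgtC
PRX34 coding: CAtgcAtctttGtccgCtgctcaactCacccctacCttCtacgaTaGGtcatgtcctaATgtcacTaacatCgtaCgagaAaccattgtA
PRX22 (AT2G38380) and PRX23 (AT2G38390), neighbours on chromosome 2, were 90.6% identical, with a longest shared stretch of 62 nt. Chosen in the same way, the stretches of 90 nt at chr2:16078018-16078107 and chr2:16081085-16081174, on the plus strand, differ by 17 bases, in capitals.
PRX22 coding: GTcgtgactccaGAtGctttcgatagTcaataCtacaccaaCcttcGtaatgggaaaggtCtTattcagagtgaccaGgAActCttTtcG
PRX23 coding: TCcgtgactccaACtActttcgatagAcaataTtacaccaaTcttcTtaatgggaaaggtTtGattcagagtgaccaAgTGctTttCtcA
PRX1 (AT1G05240) and PRX2 (AT1G05250) are shown because no base of their coding sequences differs. Their coding sequences were 100% identical over 978 nt, here from the start codon at chr1:1521202-1521291 on the plus strand and chr1:1527080-1527169 on the minus strand, and fragments from the coding part cannot be assigned to either gene.
PRX1 coding: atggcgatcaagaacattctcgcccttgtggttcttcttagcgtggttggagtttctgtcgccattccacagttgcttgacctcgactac
PRX2 coding: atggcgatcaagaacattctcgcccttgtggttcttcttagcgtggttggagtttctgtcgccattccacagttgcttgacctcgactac

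Values are FPKM, that is fragments scaled by the length of the transcript and by the mapped fragments of the library, and were added up over the transcripts of a locus. FPKM totals were 1160320 to 1350340 per library, with 22472 to 22884 loci detected. Fragment totals cannot be read from such values, though steps between low ones gave relative depths of 0.792 to 1.12 times that of wild-type replicate 1. FIP37 had 80.6, 65.0 and 67.5 FPKM in fip37-4 LEC1:FIP37, against 8.99, 9.03 and 8.96 FPKM in wild-type, and was thus high in each library labelled with the transgene. Organelle transcripts took 56.9% to 60.1% of the summed FPKM in fip37-4 LEC1:FIP37 and 50.7% to 51.2% in wild-type. Replicate 1 of fip37-4 LEC1:FIP37 stood apart from the other libraries on the second principal component (8.22% of the variance); the first, with 76.6%, separated the groups. Results that change without it are given with that value.

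The peroxidases did not move as a family: some members rose and others fell. Of the 39 members with at least 0.5 FPKM in at least 3 libraries, 18 were higher in fip37-4 LEC1:FIP37 and 15 lower at an adjusted p under 0.05 (limma), against 27.6% higher and 30.9% lower (58.6% in either direction) among all 19383 features tested. That is 46.2% and 38.5% of the tested members. Each count of called genes given below is to be read beside the same shares of all features. PRX8 and PRX52 passed the filter on low values only through the fip37-4 LEC1:FIP37 libraries, where they were high. Among tested members the median log2 fold change was 0.03, against -0.0019 for all features, while the median size of the change, whichever its sign, was 0.37 for members and 0.27 for all features. In 32 of the 39 members the groups did not overlap, against 65.9% of all features. With the fold change also at least 1 on the log2 scale, PRX35 and PRX52 were higher, and PRX33, PRX62 and PRX70 were lower, against 2.08% and 2.1% of all features (4.18% in either direction). Which genes pass that fold depends on the setting. PRX52 was at 0.76 with a pseudocount of 1 FPKM and at 0.91 after quantile normalization, which put PRX66 at 1.04. A pseudocount of 0.1 FPKM put PRX8 at 1.12 and PRX23 at -1.04, and PRX23 was at -1.11 without fip37-4 LEC1:FIP37 replicate 1. In the fit as first given, 16 called members changed by less than 0.5 on that scale.

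**Figure D1:**
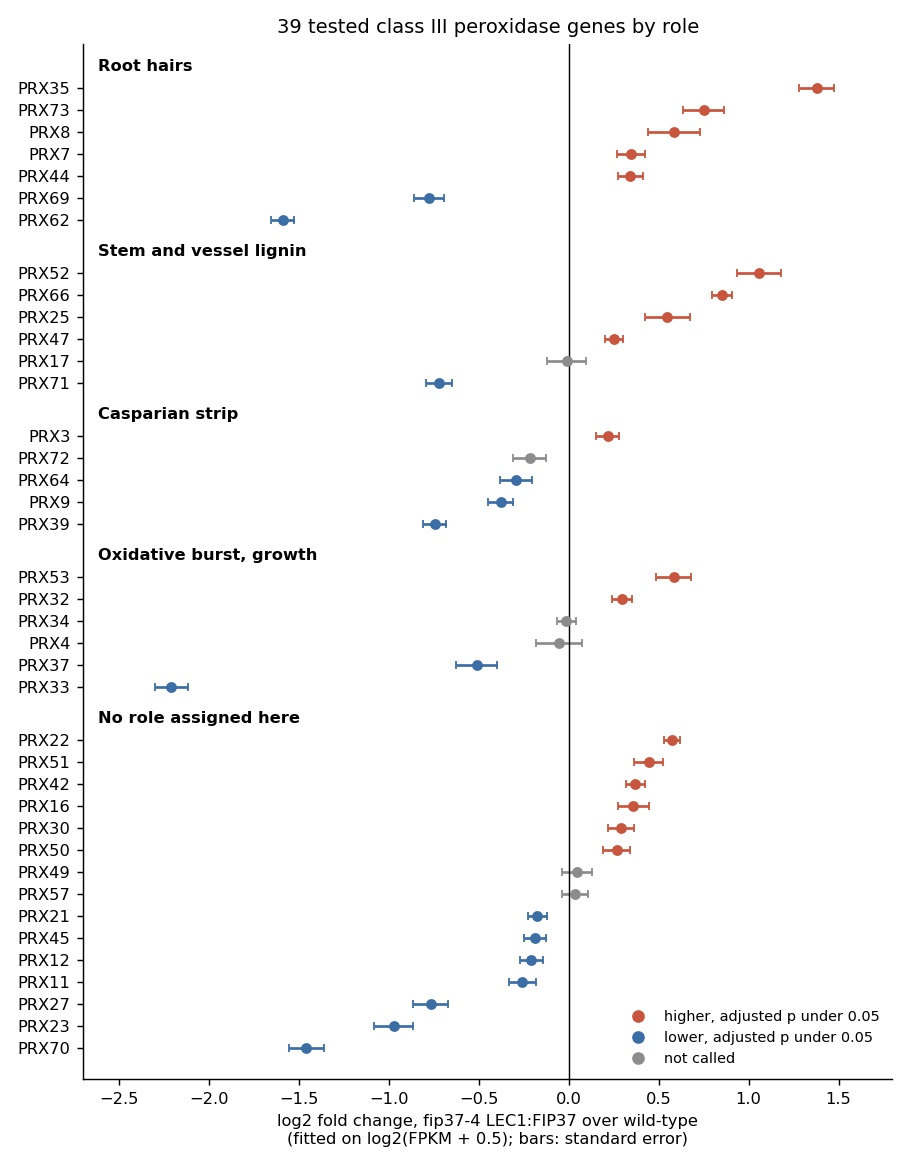
Fitted log2 fold change of fip37-4 LEC1:FIP37 over wild-type (x axis, on log2(FPKM + 0.5)) for the 39 tested peroxidase genes, ordered by role; points are estimates from 3 libraries per group, bars are standard errors. Red genes were called higher (18), blue genes lower (15) and grey genes were not called (6); every role holds genes on both sides of 0.

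Most peroxidase RNA came from a few genes. PRX42 (AT4G21960) had 494, 536 and 520 FPKM in fip37-4 LEC1:FIP37, against 391, 397 and 411 FPKM in wild-type. It was thus the most abundant member in each library, and its groups did not overlap. PRX42 was higher by 0.37 ± 0.051 on the log2 scale (SE, n = 3 per group; limma, adjusted p = 0.000369). Summed over the 47 genes, FPKM came to 1117, 1104 and 1107 in fip37-4 LEC1:FIP37, against 1012, 995 and 1032 in wild-type, and PRX42 made up 46.6% ± 2.16 of that sum in fip37-4 LEC1:FIP37 and 39.4% ± 0.721 in wild-type (SD, n = 3). Without PRX42 the sums were 592 ± 27.5 FPKM in fip37-4 LEC1:FIP37 and 614 ± 13.0 FPKM in wild-type, and these ranges overlapped. The 4 next most abundant genes, PRX32, PRX12, PRX34 and PRX21, were the only others to average 50 FPKM or more over all libraries, whereas 13 members averaged 10 to 50 FPKM, 19 averaged 1 to 10 FPKM, and 10 averaged less than 1 FPKM.

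Among the 8 members with a part in root hair growth, or whose RNA is found with root hair genes, 5 of the 7 tested rose. The 2 most abundant fell. Over all features tested, 27.6% were higher and 30.9% lower. PRX35 (AT3G49960) had 4.06, 3.30 and 3.39 FPKM in fip37-4 LEC1:FIP37, against 1.07, 1.01 and 1.12 FPKM in wild-type. Every fip37-4 LEC1:FIP37 library was above every wild-type library, and the log2 fold change of 1.38 ± 0.095 was the largest rise among tested members on this scale (limma, adjusted p = 9.67e-06). PRX73 (AT5G67400), which acts in root hair elongation, had 2.50, 2.60 and 3.18 FPKM in fip37-4 LEC1:FIP37, against 1.54, 1.21 and 1.57 FPKM in wild-type. Again the groups were apart, with a log2 fold change of 0.75 ± 0.11 (limma, adjusted p = 0.000635). PRX44 (AT4G26010), which acts with PRX73 in the elongation of root hairs, averaged 4.56 ± 0.324 FPKM in fip37-4 LEC1:FIP37 and 3.49 ± 0.0785 FPKM in wild-type (SD), a log2 fold change of 0.34 (limma, adjusted p = 0.00337). PRX7 (AT1G30870) averaged 3.31 ± 0.199 FPKM in fip37-4 LEC1:FIP37 and 2.49 ± 0.138 FPKM in wild-type, a log2 fold change of 0.35 (limma, adjusted p = 0.00469). PRX8 (AT1G34510) rose at a low level, with 0.561, 0.558 and 0.655 FPKM in fip37-4 LEC1:FIP37, against 0.130, 0.192 and 0.382 FPKM in wild-type. Steps between its values put this at about 20, 24 and 20 fragments in fip37-4 LEC1:FIP37 and 5, 8 and 14 fragments in wild-type, and the log2 fold change was 0.59 ± 0.15 (limma, adjusted p = 0.00853). This size depends on the pseudocount, being 1.12 with 0.1 FPKM added and 0.37 with 1 FPKM. PRX8 passed the filter only through the fip37-4 LEC1:FIP37 libraries.

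PRX62 and PRX69 went the other way; both act in root hair growth at low temperature. PRX62 (AT5G39580) had 7.41, 8.14 and 8.58 FPKM in fip37-4 LEC1:FIP37, against 26.3, 24.0 and 25.4 FPKM in wild-type. The lowest wild-type library was far above the highest fip37-4 LEC1:FIP37 library, and PRX62 fell by 1.59 ± 0.064 on the log2 scale (limma, adjusted p = 1.05e-06). PRX69 (AT5G64100) had 14.8, 18.3 and 18.2 FPKM in fip37-4 LEC1:FIP37, against 29.5, 30.8 and 28.0 FPKM in wild-type. It fell by 0.78 ± 0.084, with no overlap of the groups (limma, adjusted p = 0.000101). PRX1, which acts with PRX44 and PRX73 in root hairs, was listed at 0 in all 6 libraries. Its coding sequence equals that of PRX2, and how reads matching both were counted is not stated. The RNA level of PRX1 is thus uncertain. Of 10 marker genes of root hair cells that are no peroxidases, 6 passed the filter and all 6 were higher (3 to 6 over the alternatives). RHD6 and RSL4, regulators of root hair fate and growth, passed only through the fip37-4 LEC1:FIP37 libraries, where they were high. Their 3 largest changes were EXPA7 and EXPA18, which encode expansins of growing hairs, and AHA7, a proton pump, with log2 fold changes of 0.81, 0.57 and 0.64. The 10 markers summed to 8.70 to 9.94 FPKM in fip37-4 LEC1:FIP37 and 4.97 to 5.28 FPKM in wild-type, and none was at 0 in every library. Their part in the peroxidase changes was not tested; in RNA from whole seedlings, more or fewer cells of a type and more or less RNA per cell cannot be told apart.

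Of the 7 members linked to lignin of stems and vessels, 4 of 6 tested rose and PRX71 fell. The shares over all features were 27.6% higher and 30.9% lower. PRX66 (AT5G51890), which is found in lignifying vessels, had 39.1, 37.0 and 38.7 FPKM in fip37-4 LEC1:FIP37, against 19.7, 21.1 and 22.2 FPKM in wild-type. No fip37-4 LEC1:FIP37 library came near a wild-type library, and the log2 fold change was 0.85 ± 0.054 (limma, adjusted p = 6.58e-06). PRX52 (AT5G05340), which acts in the lignin of stem fibres, had 1.52, 1.12 and 1.52 FPKM in fip37-4 LEC1:FIP37, against 0.358, 0.472 and 0.376 FPKM in wild-type. The groups were apart at about 55, 49 and 47 fragments in fip37-4 LEC1:FIP37 and 14, 20 and 14 fragments in wild-type. The log2 fold change was 1.06 ± 0.12 (limma, adjusted p = 0.000141). PRX52 passed the filter only through the fip37-4 LEC1:FIP37 libraries, where it was high. PRX25 (AT2G41480), also linked to stem lignin, had 1.92, 2.79 and 2.60 FPKM in fip37-4 LEC1:FIP37, against 1.46, 1.40 and 1.62 FPKM in wild-type. Its lowest fip37-4 LEC1:FIP37 library was replicate 1, still above all wild-type libraries, and the log2 fold change was 0.55 ± 0.12 (limma, adjusted p = 0.00515). PRX47 (AT4G33420), like PRX66 a peroxidase of vessels, averaged 21.2 ± 0.636 FPKM in fip37-4 LEC1:FIP37 and 17.7 ± 0.740 FPKM in wild-type, a log2 fold change of 0.25 (limma, adjusted p = 0.00252).

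PRX71 (AT5G64120), which acts in stem lignin and restrains cell expansion, had 22.0, 18.5 and 18.5 FPKM in fip37-4 LEC1:FIP37, against 33.6, 31.2 and 33.3 FPKM in wild-type. It fell by 0.72 ± 0.071 with no overlap (limma, adjusted p = 5.82e-05). PRX17 (AT2G22420), another gene of lignified tissue, averaged 3.98 ± 0.566 FPKM in fip37-4 LEC1:FIP37 and 4.00 ± 0.383 FPKM in wild-type, and was not called; the 95% interval of its log2 fold change ran from -0.26 to 0.24. PRX2 had no value above 0 except 0.0799 FPKM in replicate 2 of fip37-4 LEC1:FIP37. Its level is as uncertain as that of PRX1. All 7 marker genes of xylem were higher (6 or 7 over the alternatives), among them VND6, a regulator of vessel fate, CESA8, a cellulose synthase of secondary walls, and XCP1, a protease of dying vessels, with log2 fold changes of 0.85, 0.82 and 0.67. Summed, the xylem markers came to 75.8 to 79.3 FPKM in fip37-4 LEC1:FIP37 and 48.6 to 50.8 FPKM in wild-type, and none was at 0 in every library. Their part in the changes of PRX66, PRX52, PRX25 and PRX47 was not tested.

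The 5 members known from the lignin of the Casparian strip, the barrier around the endodermis, changed mostly by small amounts. Of them 3 fell and PRX3 rose, against 30.9% lower and 27.6% higher over all features. Only PRX39 changed by more than 0.5 on the log2 scale. PRX39 (AT4G11290) had 2.81, 2.98 and 2.76 FPKM in fip37-4 LEC1:FIP37, against 5.17, 5.09 and 5.08 FPKM in wild-type. With a narrow spread in both groups it fell by 0.74 ± 0.064 (limma, adjusted p = 2.72e-05). PRX9 (AT1G44970) had 2.70, 2.65 and 2.79 FPKM in fip37-4 LEC1:FIP37, against 3.84, 3.50 and 3.68 FPKM in wild-type. It fell by 0.38 ± 0.069 with no overlap (limma, adjusted p = 0.00174). PRX64 (AT5G42180), which is placed at the strip by the CASP scaffold proteins, averaged 6.07 ± 0.836 FPKM in fip37-4 LEC1:FIP37 and 7.51 ± 0.276 FPKM in wild-type, a log2 fold change of -0.29 (limma, adjusted p = 0.0208). PRX72 (AT5G66390), which also acts in stem lignin, averaged 12.1 ± 1.57 FPKM in fip37-4 LEC1:FIP37 and 14.1 ± 0.919 FPKM in wild-type, and was not called, with a log2 fold change of -0.22 (95% interval -0.43 to -0.0049; limma, adjusted p = 0.0735). PRX3 (AT1G05260), which is also known as a cold-responsive gene, averaged 9.97 ± 0.666 FPKM in fip37-4 LEC1:FIP37 and 8.51 ± 0.464 FPKM in wild-type, a log2 fold change of 0.22 (limma, adjusted p = 0.0204).

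Of 10 endodermis markers, 5 were lower and 3 higher (5 to 6 and 2 to 3 over the alternatives). Of the lower ones, the scaffold genes CASP4 and CASP1 fell by 0.91 and 0.77 on the log2 scale. The 3 higher ones were the kinase gene SGN1, the receptor gene SGN3 and the cell fate gene SCR, by 0.62, 0.47 and 0.28, and SCR lost its call after rescaling to nuclear loci, with the length correction and when wild-type replicate 2 was left out (adjusted p of 0.0548, 0.0572 and 0.0684 by limma). Together the markers summed to 42.7 to 44.1 FPKM in fip37-4 LEC1:FIP37 and 49.9 to 54.8 FPKM in wild-type, none was at 0 in every library, and their part in the peroxidase changes was not tested. UPB1, a transcription factor known to repress peroxidase genes at the root tip, averaged 0.665 ± 0.264 FPKM in fip37-4 LEC1:FIP37 and 2.26 ± 0.378 FPKM in wild-type, a log2 fold change of -1.26 (limma, adjusted p = 0.000493). Of its known targets among the members, PRX39 fell, as above, and PRX57 (AT5G17820) had 11.4 ± 0.259 FPKM in fip37-4 LEC1:FIP37 and 11.1 ± 1.08 FPKM in wild-type and was not called, with an interval of -0.13 to 0.20. The part of UPB1 in the peroxidase changes was not tested. The 6 markers of the root tip were all under the filter and none was at 0 in every library, with a median sum of 0.896 FPKM in fip37-4 LEC1:FIP37 (highest 1.18) and 1.44 FPKM in wild-type (highest 1.50).

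**Figure D2:**
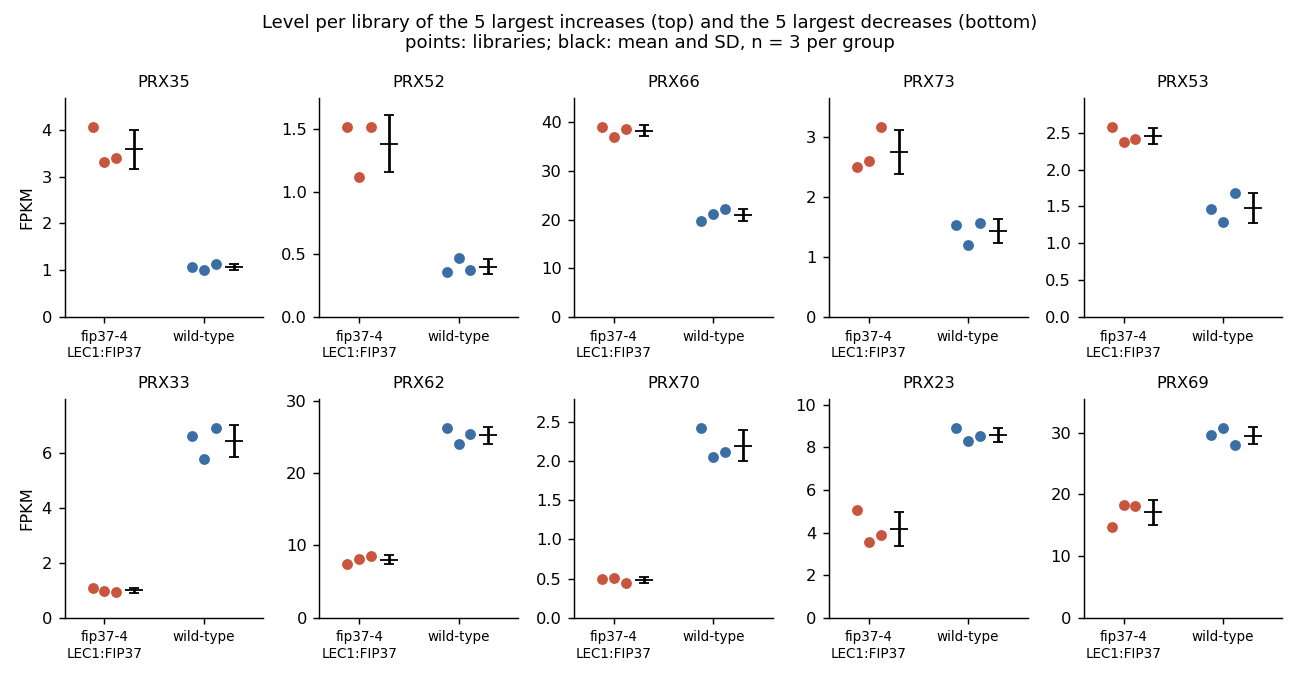
FPKM (y axis, linear and from 0, scaled for each gene) of the 5 peroxidase genes with the largest called rises (top) and the 5 with the largest called falls (bottom) among those averaging at least 1 FPKM in the higher group; fip37-4 LEC1:FIP37 is left in red, wild-type right in blue, points are libraries and black marks are the mean and SD of 3. In all 10 genes the libraries of one group lie wholly above those of the other, for example PRX35 at 3.30 to 4.06 FPKM in fip37-4 LEC1:FIP37 and 1.01 to 1.12 FPKM in wild-type.

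Members known from the oxidative burst, defence and growth held the largest fall, beside an abundant close relative that was not called. PRX33, which with PRX34 makes the apoplastic oxidative burst, had 1.09, 0.980 and 0.929 FPKM in fip37-4 LEC1:FIP37, against 6.62, 5.78 and 6.94 FPKM in wild-type. The groups were far apart, and PRX33 fell by 2.21 ± 0.089 on the log2 scale (limma, adjusted p = 1.11e-06). PRX34 had 67.6, 60.2 and 62.5 FPKM in fip37-4 LEC1:FIP37, against 65.0, 62.7 and 64.4 FPKM in wild-type. Its groups overlapped, and the log2 fold change of -0.01 had a 95% interval of -0.13 to 0.11 (limma, adjusted p = 0.831). After quantile normalization PRX34 was instead higher, by 0.27 (limma, adjusted p = 0.0105). PRX32 (AT3G32980), 84.2% identical to PRX34 in coding sequence, averaged 91.1 ± 6.80 FPKM in fip37-4 LEC1:FIP37 and 74.0 ± 0.429 FPKM in wild-type, a log2 fold change of 0.30 (limma, adjusted p = 0.00243).

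PRX53 (AT5G06720), which acts in wall elongation and wounding, had 2.58, 2.37 and 2.42 FPKM in fip37-4 LEC1:FIP37, against 1.46, 1.29 and 1.69 FPKM in wild-type. It was higher by 0.58 ± 0.097 with no overlap (limma, adjusted p = 0.00103). PRX37 (AT4G08770), whose overexpression dwarfs plants, had 2.35, 2.58 and 2.71 FPKM in fip37-4 LEC1:FIP37, against 3.15, 4.24 and 4.22 FPKM in wild-type. Its wild-type replicate 1 lay closest to the fip37-4 LEC1:FIP37 libraries, and it fell by 0.51 ± 0.11 (limma, adjusted p = 0.00446). PRX4 (AT1G14540), a gene induced by elicitors, averaged 1.52 ± 0.316 FPKM in fip37-4 LEC1:FIP37 and 1.58 ± 0.130 FPKM in wild-type, and was not called, with a 95% interval of -0.34 to 0.24. Its neighbour PRX5 (AT1G14550) averaged 0.297 ± 0.0774 FPKM in fip37-4 LEC1:FIP37 and 0.220 ± 0.0941 FPKM in wild-type, under the filter.

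For the other 20 genes no role was assigned. Of the 15 tested, 6 were higher and 7 lower, against 27.6% and 30.9% of all features. PRX70 (AT5G64110) had 0.493, 0.505 and 0.438 FPKM in fip37-4 LEC1:FIP37, against 2.43, 2.05 and 2.12 FPKM in wild-type, and lay far below in every fip37-4 LEC1:FIP37 library. PRX70 fell by 1.46 ± 0.098 (limma, adjusted p = 8.1e-06), a value that depends on the pseudocount: it was -1.99 with 0.1 FPKM added and -1.11 with 1 FPKM. PRX27 (AT3G01190) had 7.34, 9.38 and 8.49 FPKM in fip37-4 LEC1:FIP37, against 15.8, 13.0 and 15.1 FPKM in wild-type. It fell by 0.77 ± 0.098 with no overlap (limma, adjusted p = 0.000258). PRX16 (AT2G18980) had 14.4, 12.9 and 12.5 FPKM in fip37-4 LEC1:FIP37, against 9.05, 10.4 and 11.4 FPKM in wild-type. The groups lay close but apart, and the log2 fold change was 0.36 ± 0.087 (limma, adjusted p = 0.00728). PRX30 (AT3G21770) averaged 15.8 ± 1.14 FPKM in fip37-4 LEC1:FIP37 and 12.9 ± 1.04 FPKM in wild-type, a log2 fold change of 0.29 (limma, adjusted p = 0.009). Small falls were called for PRX11 (AT1G68850), PRX12 (AT1G71695), PRX21 (AT2G37130) and PRX45 (AT4G30170), by 0.26, 0.21, 0.17 and 0.19 on the log2 scale, though after quantile normalization PRX12 was at 0.12 and PRX21 at 0.074, neither called. PRX45 was the only called member whose groups overlapped. PRX12, the most abundant of them, averaged 73.2 ± 5.82 FPKM in fip37-4 LEC1:FIP37 and 84.5 ± 3.96 FPKM in wild-type. PRX49 (AT4G36430), with 6.34 ± 0.529 FPKM in fip37-4 LEC1:FIP37 and 6.14 ± 0.566 FPKM in wild-type, was not called, with a 95% interval of -0.15 to 0.24.

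Several of the smaller changes lost their calls when a library was left out or the processing was changed. Leaving out a library also leaves the test fewer values, so a call near the threshold can end at a similar fold change. PRX45, for example, was at -0.167 to -0.157 in the fits that lost its call in this way, against -0.185 with all libraries. Of the 33 called members, 26 (16 higher and 10 lower) kept their call and direction in each of 17 alternatives in which they were tested, and the other 7 were PRX3, PRX11, PRX12, PRX21, PRX45, PRX50 and PRX64. PRX12 lost its call (limma, adjusted p of 0.0715 to 0.0914) without fip37-4 LEC1:FIP37 replicate 2 or 3 or wild-type replicate 1 or 3. PRX64 did so, at 0.0575 to 0.0695, and PRX45, at 0.0825 to 0.0987, without any of the same libraries (limma). PRX21 lost its call without fip37-4 LEC1:FIP37 replicate 2 or 3 or wild-type replicate 1 or 2, at an adjusted p of 0.0605 to 0.0746 (limma). PRX3 lost it without wild-type replicate 1 or 2, at 0.0708 and 0.0707, PRX11 without wild-type replicate 2, at 0.0598, and PRX50 without wild-type replicate 3, at 0.0539 (limma, adjusted p). Rescaling to nuclear loci ended the calls of PRX3, PRX21 and PRX50 (limma, adjusted p of 0.084, 0.0511 and 0.0638). Quantile normalization ended those of PRX12, PRX21 and PRX45 and turned PRX12 and PRX21 to positive values, and PRX45 also lost its call with plain empirical Bayes (limma, adjusted p = 0.0526). A length correction ended the calls of PRX11, PRX12, PRX21, PRX45 and PRX64. Without fip37-4 LEC1:FIP37 replicate 1, the library that stood apart, PRX72 was called lower (limma, adjusted p = 0.0209).

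Neighbouring genes did not always move together. PRX22 had 24.2, 23.7 and 22.7 FPKM in fip37-4 LEC1:FIP37, against 15.7, 15.3 and 15.9 FPKM in wild-type, and was higher by 0.57 ± 0.045 (limma, adjusted p = 1.81e-05). PRX23, next to it, had 5.06, 3.55 and 3.90 FPKM in fip37-4 LEC1:FIP37, against 8.94, 8.30 and 8.54 FPKM in wild-type, and fell by 0.97 ± 0.11 (limma, adjusted p = 0.000128). Both differences left the groups apart, in opposite directions. The ratio of PRX22 to PRX23 was 4.77, 6.67 and 5.83 in fip37-4 LEC1:FIP37, against 1.76, 1.85 and 1.86 in wild-type. For PRX33 and PRX34 the ratio was 0.0161, 0.0163 and 0.0149 in fip37-4 LEC1:FIP37, against 0.102, 0.0921 and 0.108 in wild-type. Neither ratio's groups overlapped. The exact two-sided permutation test on the differences of log2(FPKM + 0.5) gave p = 0.1 for each (0.157 adjusted over the 11 pairs compared). This is the smallest p that 3 against 3 libraries allow. The same permutation test also gave p = 0.1 for PRX50/PRX51, PRX53/PRX54, PRX58/PRX59, PRX69/PRX70 and PRX70/PRX71. With so few libraries that p marks only groups that did not overlap on this scale, and cannot establish a shift. The value of fip37-4 LEC1:FIP37 minus wild-type was 1.547 for PRX22/PRX23 and -2.195 for PRX33/PRX34. For the other pairs, in the order given, it was -0.178, 0.561, 0.334, 0.685 and -0.738. The plain ratios of PRX53/PRX54 overlapped, at 9.756 in fip37-4 LEC1:FIP37 replicate 3 and 10.65 in wild-type replicate 2. PRX58 and PRX59 had 6 fragments or fewer in each library. The sources do not say how reads that match both genes of a pair were shared out, and values of near-identical neighbours are uncertain for that reason.

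The other clusters moved in the same direction, though not always by the same amount, or were at least partly below the filter. PRX50 (AT4G37520) and PRX51 (AT4G37530), 92.4% identical, were both higher: PRX50 had 25.5 ± 2.57 FPKM in fip37-4 LEC1:FIP37 and 21.1 ± 0.966 FPKM in wild-type, and its log2 fold change was 0.27 (limma, adjusted p = 0.0133). PRX51 had 10.7, 8.58 and 9.30 FPKM in fip37-4 LEC1:FIP37, against 6.79, 6.58 and 7.20 FPKM in wild-type. Its groups were apart, with a log2 fold change of 0.44 ± 0.081 (limma, adjusted p = 0.00175). PRX69, PRX70 and PRX71, which lie in a row on chromosome 5 and share 59.8% to 68.2% of their coding bases, all fell, as given above. PRX37 fell, and PRX38 (AT4G08780), 93.8% identical to it, was below the filter with 0.218 ± 0.0568 FPKM in fip37-4 LEC1:FIP37 and 0.573 ± 0.0957 FPKM in wild-type. PRX53 rose beside PRX54 (AT5G06730), 80.8% identical, which had 0.233 ± 0.0166 FPKM in fip37-4 LEC1:FIP37 and 0.226 ± 0.0946 FPKM in wild-type.

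**Figure D3:**
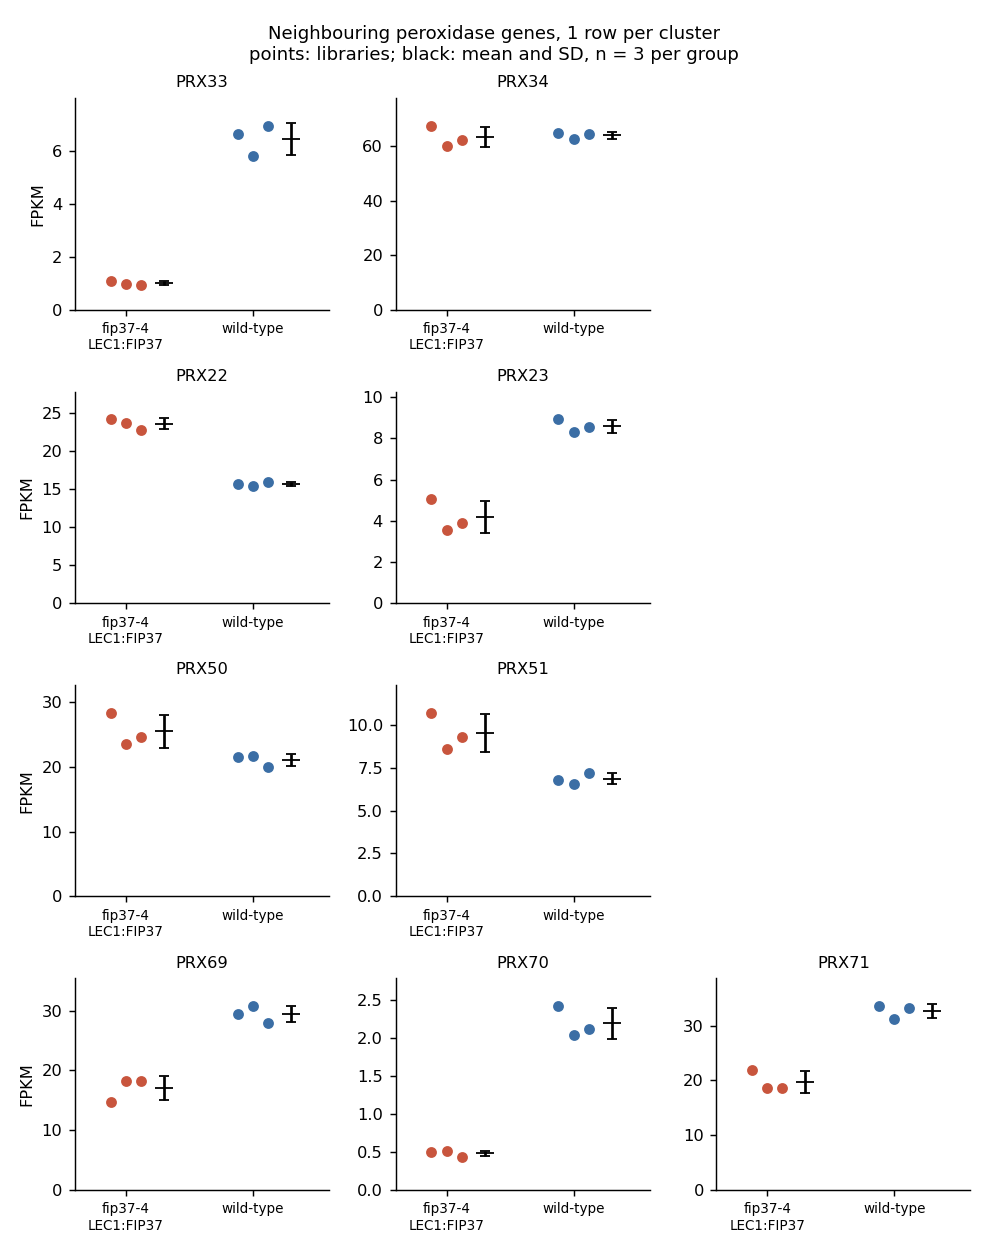
FPKM (y axis, linear and from 0, scaled for each gene) of neighbouring peroxidase genes, 1 cluster per row, in fip37-4 LEC1:FIP37 (left, red) and wild-type (right, blue); points are libraries, black marks are the mean and SD of 3 libraries. PRX33 was low in all 3 fip37-4 LEC1:FIP37 libraries while PRX34 overlapped, PRX22 and PRX23 moved in opposite directions, PRX50 and PRX51 were both higher, and PRX69, PRX70 and PRX71 were all lower.

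When the 250 nt before the annotated starts of PRX33 and PRX34 were aligned end to end, identity was 48.6%, against 90.4% in coding sequence. For PRX22 and PRX23 the upstream value was 40.1%. Such an alignment can miss stretches shared at different distances from the start, and PRX22 and PRX23 share such a stretch. These values therefore do not show that the upstream regions are unrelated. The stretches of PRX33 and PRX34 are shown because the genes differ so much in level and in change. Capitals mark TATAAA, the core of a TATA box, and TTGAC, the core of the W box bound by WRKY factors, on either strand. The stretches lie at chr3:18200337-18200586 and chr3:18207401-18207650, on the plus strand of TAIR10.1.
PRX33 upstream: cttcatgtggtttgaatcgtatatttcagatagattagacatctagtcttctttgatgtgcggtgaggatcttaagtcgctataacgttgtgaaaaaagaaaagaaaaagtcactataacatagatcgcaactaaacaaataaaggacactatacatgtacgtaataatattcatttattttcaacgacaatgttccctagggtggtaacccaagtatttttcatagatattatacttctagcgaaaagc
PRX34 upstream: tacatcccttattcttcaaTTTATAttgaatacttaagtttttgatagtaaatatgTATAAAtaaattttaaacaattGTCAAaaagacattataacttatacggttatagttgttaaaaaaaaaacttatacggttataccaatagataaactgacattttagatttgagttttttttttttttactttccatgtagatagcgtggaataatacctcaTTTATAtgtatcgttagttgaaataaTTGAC
PRX34 had 3 matches to TATAAA and 2 to TTGAC, and PRX33 had none of either. Only the TATAAA match beginning 194 nt before the start of PRX34 reads so on the gene's strand. Those beginning at 231 and 31 nt lie on the other strand. Over the 47 members, TATAAA was found before 21 genes (9 of the 18 higher and 4 of the 15 lower) and before 47.3% of 27443 protein-coding genes. TTGAC was found before 19 members (6 of the 18 higher and 5 of the 15 lower) and before 44.9% of all. CACGTG, the G box, was found before 0 members and 6.49% of all. Each motif was searched on both strands, overlapping matches included, and a match or its absence in this window says nothing of a factor's binding.

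Of the 8 members under the filter, PRX1, PRX2, PRX58 and PRX59 stayed at 6 fragments or fewer in each library, while the others reached more. PRX10 (AT1G49570) had 0.373, 0.268 and 0.290 FPKM in fip37-4 LEC1:FIP37, against 0.0689, 0.0212 and 0.0724 FPKM in wild-type, or about 15, 13 and 10 fragments in fip37-4 LEC1:FIP37 and 3, 1 and 3 in wild-type. When the filter was dropped it was higher by 0.55 (limma, adjusted p = 0.000968). In the same fit PRX58 (AT5G19880) was higher by 0.23 (limma, adjusted p = 0.0163) at about 4, 5 and 5 fragments in fip37-4 LEC1:FIP37 and 1, 1 and 2 in wild-type, and PRX38 fell by 0.58 (limma, adjusted p = 0.00262). PRX59 (AT5G19890), next to PRX58, had 0.0903 ± 0.0260 FPKM in fip37-4 LEC1:FIP37 and 0.134 ± 0.0157 FPKM in wild-type, and like PRX2, PRX5 and PRX54 it was not called there.

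At the level of transcripts, 43 members have 1 transcript in the files and 4 have 2. Of these 4, PRX21 alone had a second transcript above 0.3 FPKM. Its transcript AT2G37130.1 had 56.9, 47.6 and 48.6 FPKM in fip37-4 LEC1:FIP37, against 61.5, 62.9 and 60.0 FPKM in wild-type. The transcript AT2G37130.2 went the other way, with 1.91, 4.74 and 5.22 FPKM in fip37-4 LEC1:FIP37, against 0.375, 0.537 and 0.916 FPKM in wild-type. Its share of PRX21 was 3.24%, 9.05% and 9.70% in fip37-4 LEC1:FIP37, against 0.606%, 0.846% and 1.50% in wild-type, lowest in replicate 1 within fip37-4 LEC1:FIP37. Tested one by one, AT2G37130.1 fell by 0.27 (limma, adjusted p = 0.0193) and AT2G37130.2 was higher by 1.94 ± 0.35 (limma, adjusted p = 0.00384). PRX7, PRX38, PRX44, PRX47, PRX64, PRX66 and PRX73 overlap a gene on the opposite strand in the TAIR10.1 annotation. Their values may hold reads of that partner, since the sources do not say if fragments were counted by strand.

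Genes that supply the peroxidases' substrates mostly rose. Of 17 genes of monolignol synthesis, which makes the units of lignin, 12 were higher (11 to 14 over the alternatives) and the other 5 were not called (limma), led by 4CL1, CAD5 and PAL1. 4CL1, which activates hydroxycinnamic acids, averaged 64.7 ± 1.37 FPKM in fip37-4 LEC1:FIP37 and 29.1 ± 0.483 FPKM in wild-type, a log2 fold change of 1.14. CAD5, which makes the alcohols, averaged 35.0 ± 4.25 FPKM in fip37-4 LEC1:FIP37 and 19.8 ± 0.690 FPKM in wild-type, a log2 fold change of 0.80, and PAL1, which opens the pathway, had one of 0.64. All 6 tested of the 10 NADPH oxidases, which release the superoxide that turns into hydrogen peroxide, were higher (3 after quantile normalization), with log2 fold changes of 0.78 for RBOHF, 0.64 for RBOHD and 0.42 for RBOHC, the oxidase of root hairs. Laccases, which oxidise monolignols with oxygen, were split, with 4 higher and 4 lower of 11 tested. Of these, LAC17, LAC11 and LAC4, which act in the lignin of stems, were higher by 0.95, 0.79 and 0.76. LAC1, among the lower ones, passed the filter only through the wild-type libraries, where it was high. The extensin gene EXT3 and the wall protein gene LRX2 were the only tested of 9 genes of structural wall proteins, and were higher by 0.25 and 0.34; neither call held in every alternative. LRX2 passed the filter only through the fip37-4 LEC1:FIP37 libraries, where it was high.

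**Figure D4:**
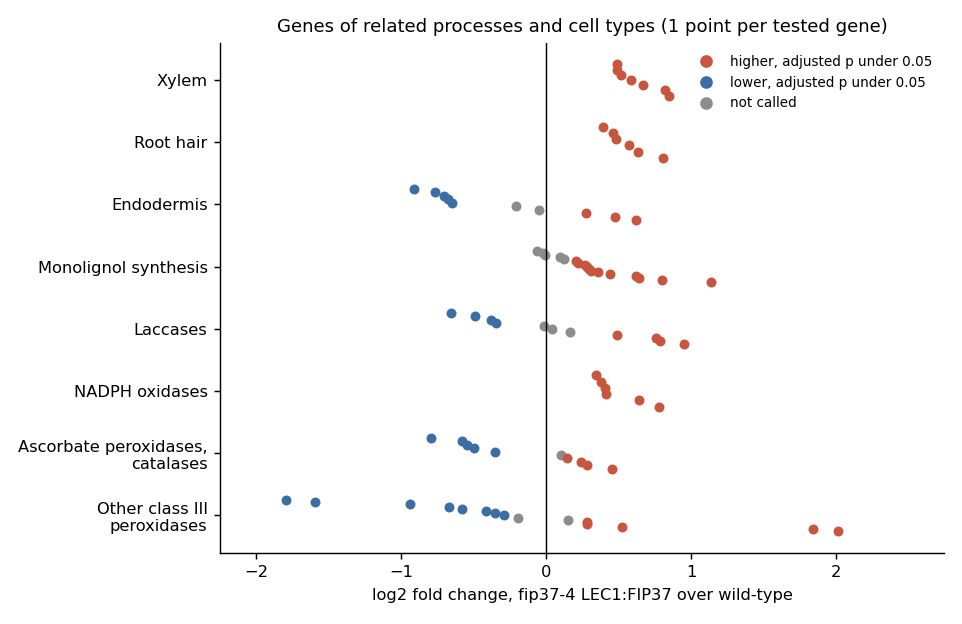
Fitted log2 fold change of fip37-4 LEC1:FIP37 over wild-type (x axis) for the tested genes of 8 lists of related processes and cell types (rows); 1 point per gene, red higher, blue lower, grey not called. The xylem, root hair and NADPH oxidase genes lie right of 0, while the endodermis genes, the laccases and the other class III peroxidases lie on both sides.

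The other 26 genes of the family, which are numbered to 73 in all, were split as well, with 5 higher and 8 lower of 15 tested (2 to 5 and 6 to 8 over the alternatives; limma), and 3 were at 0 in every library. PRX43 (AT4G25980) averaged 3.05 ± 0.154 FPKM in fip37-4 LEC1:FIP37 and 0.381 ± 0.0682 FPKM in wild-type, a log2 fold change of 2.01; it passed the filter only through the fip37-4 LEC1:FIP37 libraries. PRX65 (AT5G47000) averaged 5.42 ± 0.416 FPKM in fip37-4 LEC1:FIP37 and 1.15 ± 0.124 FPKM in wild-type, a log2 fold change of 1.84. PRX67 (AT5G58390) averaged 0.638 ± 0.161 FPKM in fip37-4 LEC1:FIP37 and 3.44 ± 0.340 FPKM in wild-type, a log2 fold change of -1.80. All 8 photosynthesis genes taken as markers of green tissue were higher in this whole-seedling RNA, or 4 after quantile normalization. The log2 fold changes were 0.88 for RCA, 0.84 for RBCS1A and 0.84 for LHCB2.1. Their sums were 30970 to 35330 FPKM in fip37-4 LEC1:FIP37 and 20620 to 21360 FPKM in wild-type. The library label is whole plant, and green and root markers were both detected; of those of the root, MRH6, of root hairs, and SMB, of the root cap, were listed at 0 in some libraries. The green markers' part in the peroxidase changes was not tested.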

How the data were processed

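The deposited files hold FPKM per transcript for 36104 transcripts, made by the authors on TAIR10 with TopHat2 2.0.9 and then Cufflinks 2.1.1 (per the submitters' processing notes); the unit was inferred from these tools and the values. Settings for reads that match several places are not given in the sources used here. Values were summed per locus to 28141 features and compared on log2(FPKM + 0.5), which understates the change of low genes, after a filter that 0.5 FPKM be reached in 3 or more of the 6 libraries, which kept 19383 features. limma 3.58.1 (R 4.3.3) gave p-values, with trend and robust settings of empirical Bayes and genotype alone in the model. They were adjusted over all features by Benjamini-Hochberg and called under 0.05. The fit was also run on simulated data in which few genes changed, unlike these data. That run therefore does not assess the calls given here. Ratios of neighbouring genes were compared by an exact permutation test (SciPy 1.17.1, Python 3.11.15). Alternatives changed the pseudocount (0.1 and 1 FPKM), the filter (1 FPKM and none), the empirical Bayes step, the scaling, a length correction, a replicate block, and left out each library.

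The 47 members, their roles, the other gene lists and the tests were chosen with earlier results of these data known. Values per library are given for the 10 largest called rises and the 10 largest called falls among members with at least 1 FPKM in the higher group; PRX8, PRX10 and PRX34, and the transcripts of PRX21, were given so after their values were seen. Of each other list, up to 3 called genes with the largest changes are named, except a gene that is not reported here; RHD6, RSL4, SGN1, SGN3, SCR and the genes whose direction turned with the scaling were named after seeing their values. Of the members, 11 carry their PRX number in RefSeq; the others follow the family's usual numbering. Loci were matched to RefSeq's TAIR10.1 by locus code (26701 loci). Identity, motifs and sequences come from that assembly and its annotation.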

Additional observations from a re-analysis of the deposited data

How the results depend on the processing

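The counts of members called kept within 1.5 times of 18 higher and 15 lower in all alternatives tried. Leaving out 1 library at a time gave 16 to 17 higher and 11 to 16 lower members, with 4476 to 5059 higher and 5160 to 6041 lower among all genes. The length correction gave the fewest lower members, 10, and ended the calls of PRX11, PRX12, PRX21, PRX45 and PRX64. The median log2 fold change of the members, 0.03, is near 0 and moved with the setting: it was 0.011 with a filter of 1 FPKM, 0.12 after quantile normalization, 0.0097 after rescaling to nuclear loci and 0.14 with the length correction, and ran from -0.0057 to 0.0892 when 1 library was left out; the causes were not tested. The log2 ratio of the members' summed FPKM was 0.13, and 0.11 as a share of nuclear FPKM. Quantile normalization turned the sign of some listed genes that were called with or without it. These were PRX12 (to 0.12), PRX21 (0.074), PRX34 (0.27), CYP98A3 (0.15), COMT1 (0.28) and CAB4 (-0.035). Of them, PRX34, CYP98A3 and COMT1 were then called higher (limma, adjusted p = 0.0105, 0.0369 and 0.000851). PRX8 and PRX52 fell under the filter in the alternatives that left out a library of fip37-4 LEC1:FIP37, so their calls were not tried there. With the filter of 1 FPKM, PRX8 was not tested either. The values gave no sign that the replicate numbers pair the libraries (correlations of same-numbered deviations of -0.057 to -0.028, with 0.099 the highest of any pairing), and the labels do not say. The replicate block gave 18 higher and 16 lower members, and 5075 higher and 5804 lower genes, and added PRX72. Depth limits PRX58 and PRX59 most, which had 6 fragments or fewer in each library. PRX1 and PRX2 were listed as low too, but reads of their identical coding sequences cannot be assigned. Their values are therefore uncertain beyond the limit of depth.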

Other observations

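The intracellular enzymes that remove hydrogen peroxide, which were compared as a contrast to the secreted peroxidases, were split: of 11 genes, 10 were tested, 4 were higher and 5 lower (2 to 5 and 4 to 5 over the alternatives; limma). The chloroplast ascorbate peroxidase gene SAPX averaged 18.4 ± 0.167 FPKM in fip37-4 LEC1:FIP37 and 32.3 ± 0.465 FPKM in wild-type (SD, n = 3), a log2 fold change of -0.80. The catalase gene CAT1 averaged 22.4 ± 0.943 FPKM in fip37-4 LEC1:FIP37 and 33.7 ± 1.76 FPKM in wild-type, a log2 fold change of -0.58, and APX3, of the peroxisome membrane, had one of -0.54. CAT2 and CAT3, chosen after their values were seen, were higher, by 0.28 and 0.46, though CAT3 differed by 0.04 after quantile normalization (limma, adjusted p = 0.537); CAT3, the most abundant gene of the list, averaged 1281 ± 16.1 FPKM in fip37-4 LEC1:FIP37 and 933 ± 25.6 FPKM in wild-type.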
